A study of Sus scrofa with 35 samples.

Results

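A set of 9 chemokine receptor genes of blood leukocytes, CCR1, CCR2, CCR7, CXCR1, CXCR2, CXCR3, CXCR4, CXCR5 and CX3CR1, were described in whole blood of pigs. Probes were found by gene name on the array (CXCR1 and CXCR2 also under the older names IL8RA and IL8RB), without use of any measured value. Of the 9 genes, 7 had a probe, and CXCR5 and CX3CR1 had 0 probes under these names. The 7 genes had 12 of 60305 probes of the array, and 11 of these were among the 39072 probes of the authors' table of log2 values.

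Chemokines are small secreted proteins, and their receptors are G protein-coupled receptors that guide leukocytes along gradients of these ligands. CXCR1 and CXCR2 bind interleukin 8 and related chemokines and draw neutrophils into inflamed tissue, while CCR1 and CCR2 act mainly on monocytes and other myeloid cells. CCR7 guides naive and central memory T cells into lymph nodes, CXCR3 marks activated and cytotoxic T cells and natural killer cells, and CXCR4, the receptor of CXCL12, retains many leukocytes in the bone marrow.

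The blood came from 35 castrated male growing pigs, 1 array per pig, of the Creole breed (CR, 11 pigs), the Large White breed (LW, 12 pigs) and their F1 cross (12 pigs). Thermoneutral (TN) pigs were kept at 24 °C, and heat stress (HS) pigs were exposed, for 5 d according to the labels, to a warm room that the sample titles give as 30 °C and the protocol as 32 °C. All had entered the climatic room at 11 weeks of age. Each breed and climate group held 6 pigs, except the CR TN group with 5, and TN pigs were slaughtered before the temperature was raised, so that climate and time of sampling cannot be told apart. The labels give no cell counts, pen, day, sire or dam. In such bulk samples fewer cells of a type and less RNA per cell cannot be told apart.

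The F1 TN group had the lowest mean share of probes clearly above background, 60.02 ± 3.35% (SD, n = 6), against group means of 63.0% to 65.1% in the other 5 groups, and single arrays overlapped (55.2% to 63.9% in F1 TN pigs, 59.2% and above elsewhere). The mean log2 level of the erythroid markers, which come from immature red cells, was 10.22 ± 0.60 in F1 TN pigs and 9.38 to 9.92 in the other groups, a gap to the next group within the SD. The F1 HS group lay farther from the F1 TN group than the SDs in both measures. Its share above background was 65.11 ± 1.59% (63.2% to 67.5%), and its erythroid level was 9.38 ± 0.54. Of the 16 T cell, 10 monocyte and 12 neutrophil markers listed, 12, 7 and 9 were in the table. All of these were well above background on all 35 arrays, as were 9 of 12 cytotoxic cell markers. The table holds only probes that the authors took as expressed, so this detection was partly fixed in advance.

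The probes were 60 bases long. All 11 probes in the table were well above background on all 35 arrays. The remaining CCR1 probe exceeded background on 3 arrays and was not in the table. The probes of CXCR3 and of CCR7 probe 2 are shown because the 2 genes moved in opposite directions under HS although the probes lie in similar stretches. In the best ungapped alignment they had the same base at 37 of 59 positions (62.7%). Capitals mark the bases that the aligned 30-base stretches share.
CXCR3: TggcCTGtATCAGCtTtGAtCGgTACcTGa
CCR7, probe 2: TtctCTGcATCAGCaTcGAcCGcTACgTGg

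The first 30 bases of CXCR4 probe 3 and of the CXCR1 probe are given because the former is the CXCR4 probe with the smallest SE and the latter carries the name CXCR1 from the array file alone, a symbol that the pig RefSeq table used here does not hold, so that its gene was not checked. These are in lower case throughout.
CXCR4, probe 3: ttttccactgttgcctgaatcctatcctct
CXCR1: atatcaacaagtatgccgtagttgtcatct

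HS against TN was the main contrast. CCR7 was higher in HS pigs, CXCR3 and CXCR4 were lower, and the receptors of neutrophils and myeloid cells did not pass the threshold. In limma, with adjusted p under 0.05, 5 of the 11 probes were differentially expressed between the climates over all breeds, 2 higher and 3 lower. The background was 34.8% of all 39072 probes, with 20.1% higher and 14.7% lower in HS. This fit treats pigs as independent, although each pen and slaughter day belonged to a single climate, so its p-values may be too small. By the brightest probe of each gene, 3 of 7 genes were called, against 39.7% of the 8484 named genes, so the count itself was near the background. None of the 5 calls passed in a fit without the F1 pigs (0 of 39072 probes passed at all), nor with the erythroid marker mean as a covariate, where 42 probes passed, while the signs of all 5 were kept.

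**Figure D1:**
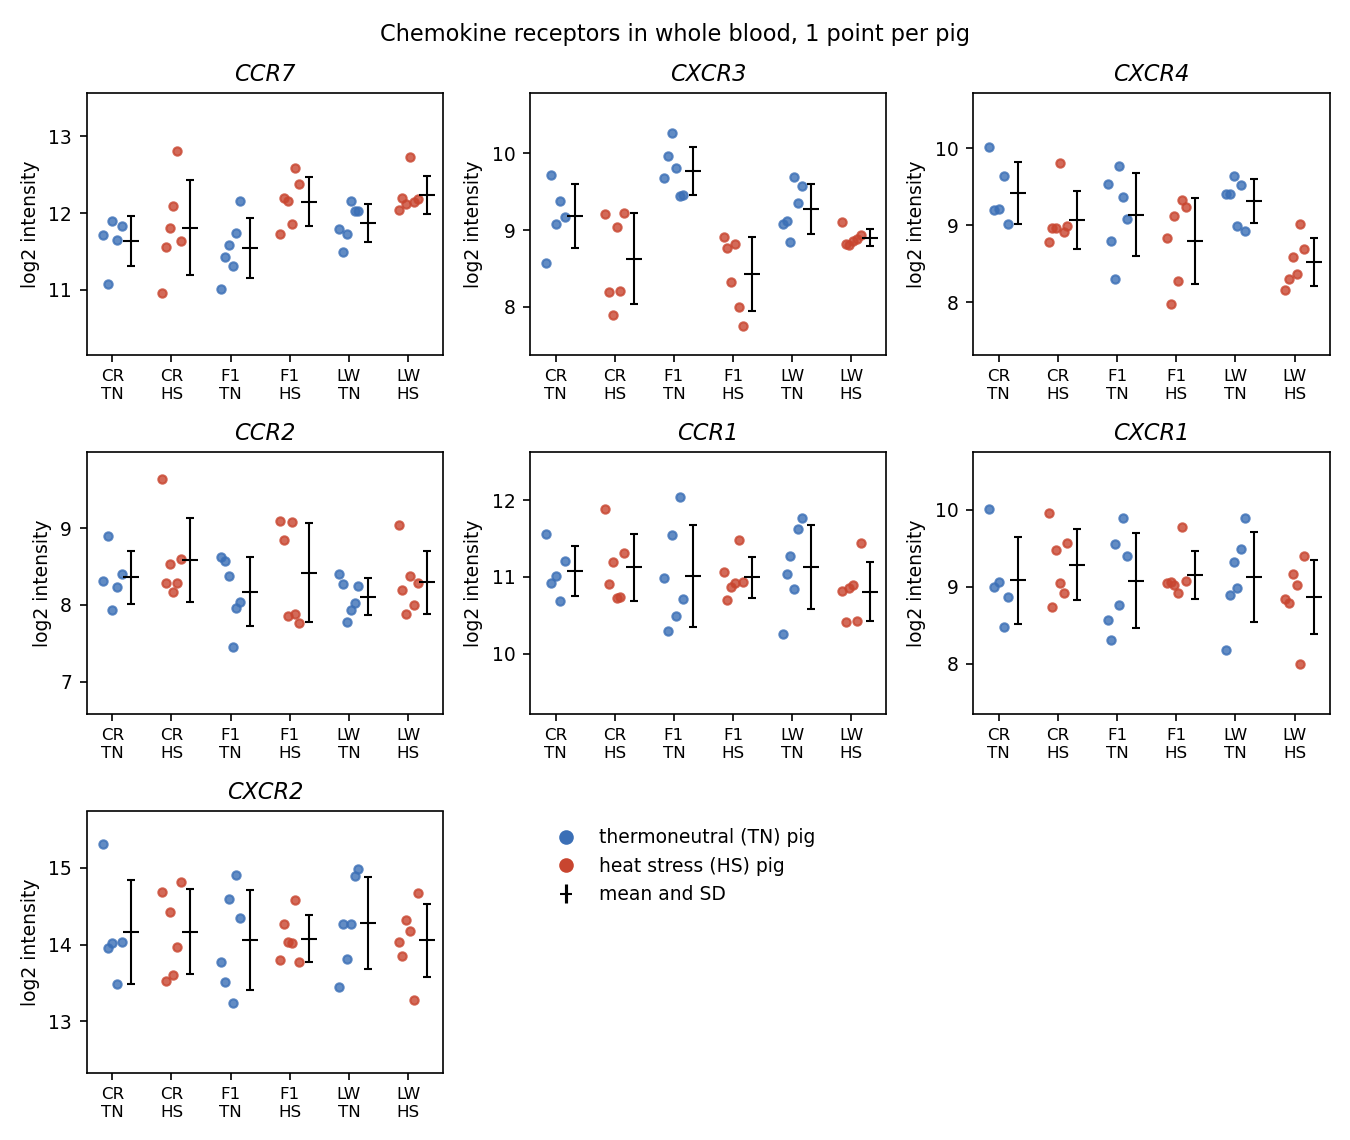
Log2 intensity (vertical axes, each spanning the same range) of the brightest probe of 7 chemokine receptors in 6 groups (horizontal axes), with 1 point per pig and the group mean and SD beside the points. CXCR3 points of F1 HS pigs all lie below those of F1 TN pigs, whereas the points of CXCR1, CXCR2 and CCR1 overlap between all TN and HS groups of a breed.

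CXCR3, the receptor of interferon-induced chemokines such as CXCL10, showed the largest difference of the 11 probes. In CR TN pigs its log2 level was 8.58, 9.72, 9.08, 9.38 and 9.17, and in CR HS pigs it ran from 7.89 over a median of 8.63 to 9.23. In F1 pigs it was 9.44, 9.75 and 10.27 (lowest, median and highest) under TN and 7.75, 8.55 and 8.91 under HS. In LW pigs the same values were 8.84, 9.24 and 9.69 under TN and 8.81, 8.87 and 9.10 under HS. The F1 groups did not overlap, the CR and LW groups did, and the LW HS pigs were close together at the lower end of the LW TN range. Within F1 pigs 38.7% of all probes were called, and the share of all probes without overlap between the F1 groups is not given here.

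Over all pigs CXCR3 was 0.589-fold in HS, a log2 difference of -0.76 ± 0.15 (SE; 95% interval -1.06 to -0.47; adjusted p = 0.00159). Of the 18 HS pigs, 16 lay below the TN mean of their breed. Within F1 pigs the log2 difference was -1.34 ± 0.22 (adjusted p = 0.000211), or 2.53-fold lower. It was -0.56 ± 0.23 in CR and -0.38 ± 0.22 in LW pigs (adjusted p = 0.557 and 0.604). The effect in F1 minus that in LW was -0.96 ± 0.32 (adjusted p = 0.122) and that in F1 minus that in CR was -0.78 ± 0.32 (adjusted p = 0.398), so a difference between breeds in the response of CXCR3 was not detected in limma after adjustment. With array weights the former passed, at -1.003 ± 0.28 (adjusted p = 0.0364), in a setting where 9.99% of all probes passed. A probe that the files name LOC100524123 shares all 60 bases with the CXCR3 probe, and the RefSeq table lists that gene number as CXCR3. Its log2 difference was -0.70 ± 0.14 (adjusted p = 0.0016).

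The level of CXCR3 ran with that of many other genes. After group means were removed, 203 of the 8483 other named genes correlated with CXCR3 across the 35 pigs at r of 0.9 or more, whereas the other 6 receptors had 0 to 6 such genes. At r of 0.8 or more there were 601 genes, of which 594 were lower and 0 higher in HS. Of all named genes 16.8% were lower and 22.9% higher, and the 601 were picked because they ran with CXCR3. At the same r, 0 of 30 genes were called for CXCR4, 8 of 9 were higher for CCR7 and 4 of 15 were lower for CCR2. For CCR1, CXCR1 and CXCR2 0 were called. The 3 most similar genes were DLAT, a subunit of pyruvate dehydrogenase (r = 0.97), DYNC1I2, a dynein chain (r = 0.96), and CALY (r = 0.96), so CXCR3 was 1 of a large block of probes that fell together. The F1 TN group, where the mean of CXCR3 was highest, also had the lowest mean share of probes above background. In a fit without any F1 pig, TN or HS, the CXCR3 difference was -0.46 ± 0.16 (adjusted p = 0.212).

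Among markers of cells that carry CXCR3, 3 of 12 cytotoxic cell markers fell under HS and 0 rose, against 16.8% of all named genes that fell, and the median difference of the 12 was just -0.040. TBX21, the transcription factor T-bet of type 1 lymphocytes, fell by 0.48 on the log2 scale (SE 0.15, adjusted p = 0.0119) over all pigs. KLRK1, which encodes the activating receptor NKG2D, fell by 0.75 ± 0.29 (adjusted p = 0.0437) and NKL, the pig granulysin homologue, by 0.43 ± 0.14 (adjusted p = 0.0157). The group mean of the 12 markers went from 9.58 ± 0.19 to 9.34 ± 0.16 in F1 pigs (TN and HS, n = 6 each), from 9.66 ± 0.26 to 9.50 ± 0.24 in LW pigs (n = 6 each), and from 9.31 ± 0.08 to 9.36 ± 0.30 in CR pigs (n = 5 and 6). Of the 12 T cell markers 3 rose, 0 fell and 9 did not pass, with a median of 0.18, and the share that rose was near the 22.9% of all named genes. With the T cell marker mean as a covariate, a fit chosen after the data were seen, the CXCR3 difference was -0.51 ± 0.11 (adjusted p = 0.0125).

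CCR7, the lymph node homing receptor, was higher in HS pigs by both of its probes. For probe 1 (A_72_P223792) the CR TN pigs had log2 levels of 11.72, 11.08, 11.89, 11.65 and 11.83, and the CR HS pigs ran from 10.97 over 11.72 to 12.81. The F1 pigs had 11.01, 11.51 and 12.15 (lowest, median, highest) under TN and 11.72, 12.18 and 12.59 under HS. The LW pigs had 11.49, 11.91 and 12.15 under TN and 12.05, 12.16 and 12.72 under HS. All groups overlapped, with CR pigs the most mixed, while every F1 and LW HS pig exceeded the TN mean of its breed.

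Over all breeds the log2 difference of CCR7 was 0.39 ± 0.12 (SE; 1.31-fold; adjusted p = 0.0161) by probe 1 and 0.52 ± 0.15 (1.44-fold; adjusted p = 0.00702) by probe 2 (O9612). Of the 18 HS pigs, 15 and 16 lay above the TN mean of their breed. Within F1 pigs both probes passed, at 0.61 ± 0.21 (adjusted p = 0.0236) and 0.82 ± 0.25 (adjusted p = 0.0104). With CXCR3, this gave 3 of 11 probes called in F1 pigs, against 38.7% of all probes. In CR pigs the differences were 0.18 and 0.36 and in LW pigs 0.36 and 0.38, with adjusted p of 0.604 to 0.824.

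The gene most similar to CCR7 across pigs was IL7R, the interleukin 7 receptor of naive and memory T cells (r = 0.87 of deviations from group means). IL7R itself differed by 0.19 ± 0.09 (adjusted p = 0.116). The T cell markers that rose by their brightest probe were CD5 (0.45 ± 0.12), CD2 (0.33 ± 0.11) and CD4 (0.31 ± 0.10). Both CD5 probes were called, but only 1 of 2 CD2 probes (the other gave 0.09) and 2 of 3 CD4 probes (lowest difference 0.04). The group mean of all 12 T cell markers was 9.74 ± 0.17 in F1 TN and 10.15 ± 0.31 in F1 HS pigs (n = 6 each), while in CR and LW pigs it differed by less than the SD. With the T cell marker mean as a covariate CCR7 did not pass (0.17 ± 0.09, adjusted p = 0.202, and 0.30 ± 0.12, adjusted p = 0.0913). That mean includes IL7R, so a smaller CCR7 difference in this fit was partly built in.

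CXCR4, the receptor of the bone marrow chemokine CXCL12, was lower in HS pigs by all 3 of its probes, of which 2 passed. For probe 1 (A_72_P661857) the CR TN pigs had log2 levels of 10.02, 9.20, 9.21, 9.64 and 9.01, against 8.78, 8.96 and 9.81 (lowest, median, highest) in CR HS pigs. The F1 pigs had 8.30, 9.22 and 9.77 under TN and 7.97, 8.97 and 9.33 under HS. The LW pigs had 8.93, 9.40 and 9.64 under TN and 8.16, 8.48 and 9.02 under HS. In CR pigs 5 of 6 HS pigs were below the lowest TN pig and 1 was among the highest, and in LW pigs again 5 of 6 HS pigs were below the TN range, whereas the F1 groups overlapped widely.

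The log2 differences over all pigs were -0.50 ± 0.14 (0.707-fold; adjusted p = 0.00711) by probe 1, -0.40 ± 0.16 (adjusted p = 0.0558) by probe 2 (A_72_P599748) and -0.33 ± 0.10 (0.797-fold; adjusted p = 0.0143) by probe 3 (A_72_P088501). By point estimate the fall was largest in LW pigs. There the 3 probes differed by -0.79 ± 0.24, -0.70 ± 0.28 and -0.46 ± 0.18, in CR pigs by -0.35, -0.19 and -0.19, and in F1 pigs by -0.34, -0.28 and -0.31. None of these passed after adjustment over all probes (adjusted p = 0.563 for each in LW and 0.154 or more in F1), and the interaction of breed and climate was not called for CXCR4 (adjusted p = 0.625 to 0.794).

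The difference of CXCR4 varied between slides, each of which held pigs of both climates. Within the 5 slides the HS minus TN difference of probe 1 was -1.10, -0.40, -0.68, 0.078 and -0.11. The lower HS level of this probe came mainly from 3 of 5 slides. Probe 2 gave -1.09, -0.21, -0.49, 0.12 and 0.0041. Probe 3 gave -0.88, -0.024, -0.41, 0.043 and -0.21, so its lower HS level came mainly from slides 1 and 3. These differences are not adjusted for breed, and with breed in the fit and slide as a block the difference of probe 1 was -0.50 ± 0.14 again. For CXCR3 all 5 slides gave a lower HS level, from -0.27 to -0.98, and for CCR7 probe 2 all 5 gave a higher one, from 0.11 to 0.74. The last slide held only LW pigs under TN and only CR and F1 pigs under HS, so breed and climate cannot be told apart there.

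**Figure D2:**
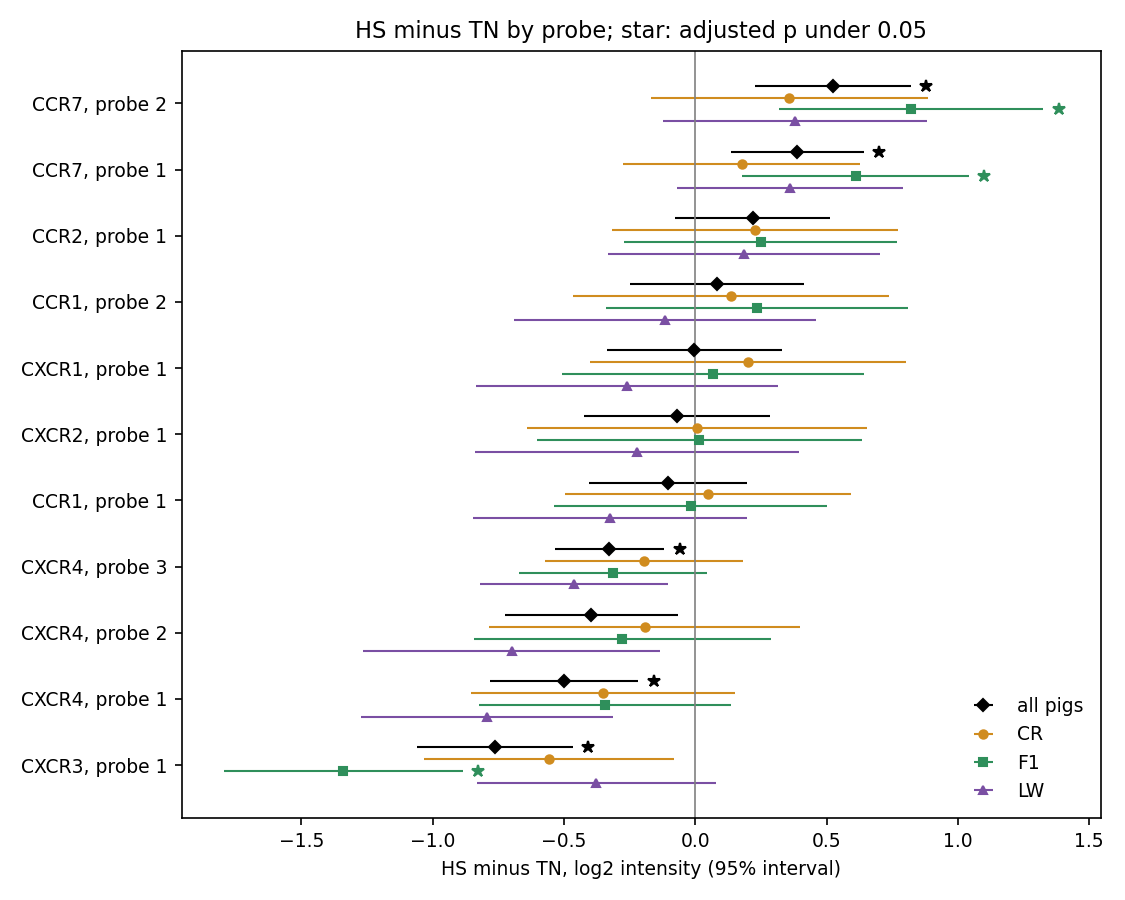
Difference HS minus TN in log2 intensity (horizontal axis) for 11 chemokine receptor probes (vertical axis), over all pigs and within each breed, with bars for the 95% interval of the limma fit and stars at adjusted p under 0.05. CXCR3 lies farthest to the left with F1 at -1.34, and the CXCR4 probes lie farthest left in LW pigs.

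Neither CXCR1 nor CXCR2, the interleukin 8 receptors of neutrophils, was detected as different between HS and TN. For CXCR1 the CR TN pigs ranged from 8.48 to 10.01 and the CR HS pigs from 8.74 to 9.96, and the overall difference was -0.0031 ± 0.16 (95% interval -0.34 to 0.33; adjusted p = 0.991). For CXCR2 the overall difference was -0.07 ± 0.17 (interval -0.42 to 0.28; adjusted p = 0.778). With 35 arrays, differences within these intervals remain possible. The spread between pigs of a group was wide, with SDs of 0.30 to 0.68 for CXCR2. Over the same pigs 1 of 9 neutrophil markers fell (16.8% of all named genes did), ARG1, the granule arginase (-1.52 ± 0.32, adjusted p = 0.00165), and the median difference of the 9 was -0.54, against 0.06 for all named genes.

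CCR1 and CCR2, receptors of monocyte-attracting chemokines such as CCL3 and CCL2, also missed the threshold. The CCR1 probes gave -0.10 ± 0.15 (95% interval -0.40 to 0.20; adjusted p = 0.609) and 0.08 ± 0.16 (interval -0.25 to 0.41; adjusted p = 0.709), with opposite signs although they share a run of 28 bases. CCR2 gave 0.22 ± 0.15 (adjusted p = 0.234), with 10 of 18 HS pigs above the TN mean of their breed. In F1 HS pigs CCR2 fell into 3 pigs above every F1 TN pig and 3 lower ones, and the group SD of 0.65 was the largest of the 6. Of the 7 monocyte markers 2 rose, CSF1R (0.51 ± 0.11) and VCAN (0.48 ± 0.16), and 0 fell, with a median of -0.084, against 22.9% of all named genes that rose.

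No breed contrast called a receptor probe in limma. In CR minus LW, 0 of 11 probes passed (1.08% of all probes did), with log2 differences from -0.34 to 0.33, and 1 probe, CCR7 probe 1 at -0.34 ± 0.15, had an unadjusted p under 0.05. The counts were also 0 of 11 for F1 minus CR (0.184% of all probes), F1 minus LW (0.0256%) and F1 minus the mean of CR and LW (0.0717%), with 0 of 11 at an unadjusted p under 0.05 in each. Within CR and within LW pigs the HS contrast called 0 of 39072 probes in all, with 3466 and 3404 at an unadjusted p under 0.05. Among receptors these were CXCR3 in CR and the 3 CXCR4 probes in LW. The F test of the interaction called 0 probes, with 5807 at an unadjusted p under 0.05, and the smallest p of a receptor was that of CXCR3 (adjusted p = 0.278).

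In the order of the 6 group means, most neighbours did not differ beyond their spread. For CXCR3 the order was F1 TN (9.77 ± 0.32), LW TN (9.28 ± 0.32), CR TN (9.19 ± 0.42), LW HS (8.90 ± 0.11), CR HS (8.63 ± 0.59) and F1 HS (8.43 ± 0.48), so all 3 TN groups stood above all 3 HS groups and F1 pigs were at both ends. Only the step from F1 TN to LW TN exceeded the larger SD of its pair. For the other 10 probes none of the 5 steps did. The means of CXCR2 spanned just 0.22 log2 units, the least of the 11 probes.

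Pigs of the same group still differed in the receptors, and these differences had a clear structure. Deviations from the group mean were correlated for the 21 pairs of receptors over 35 pigs, with 100000 permutations within groups and Benjamini-Hochberg adjustment over the 21 pairs. CXCR1 and CXCR2 ran together with r = 0.91 (rho = 0.87), CCR1 and CXCR1 with r = 0.87 (rho = 0.82) and CCR1 and CXCR2 with r = 0.82 (rho = 0.77). Their permutation p-values were 1e-05, the smallest that can be given, for the first 2 pairs and 2e-05 for the third (for rho 1e-05, 1e-05 and 7e-05), and 0.000105, 0.000105 and 0.00014 after adjustment. Without the 2 pigs farthest from the median r was 0.88, 0.85 and 0.81, and within TN or HS pigs alone it stayed at 0.78 or more.

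**Figure D3:**
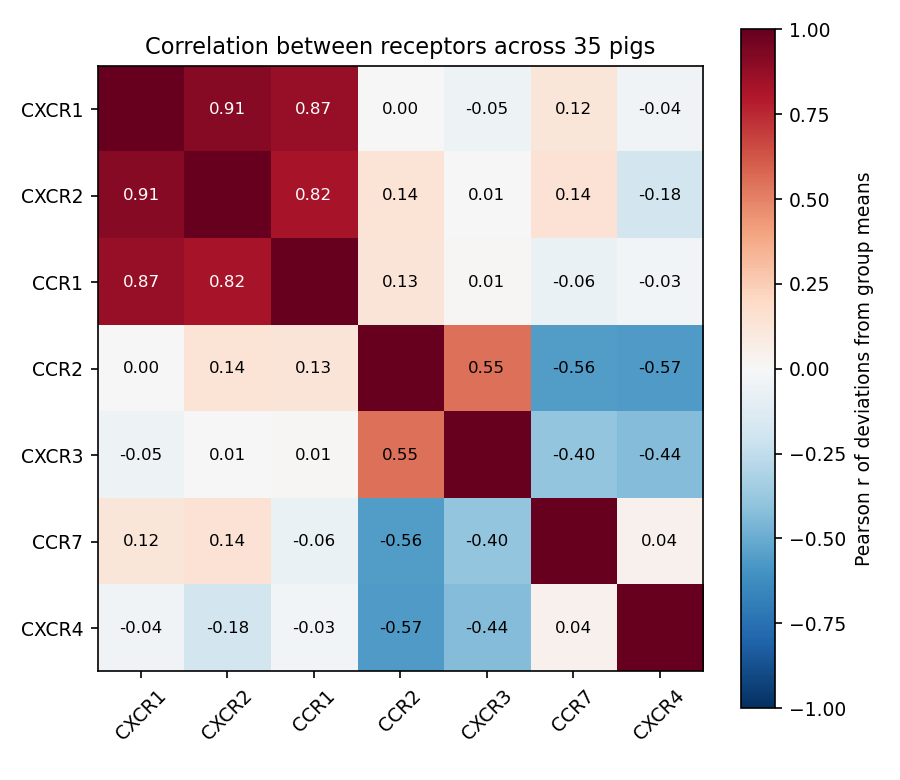
Pearson r between deviations of 7 receptors from their group means across 35 pigs, with rows and columns the receptors by their brightest probe and colour from -1 (blue) to 1 (red). CXCR1, CXCR2 and CCR1 form a block at 0.82 to 0.91, and CCR2 is negative with CCR7 and CXCR4.

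CCR2 stood outside that block (r = 0.00 with CXCR1, 0.14 with CXCR2 and 0.13 with CCR1). Its deviations were positive with those of CXCR3 (r = 0.55, rho = 0.53) and negative with those of CCR7 (r = -0.56, rho = -0.50) and CXCR4 (r = -0.57, rho = -0.58). The permutation p-values were 0.00307, 0.00311 and 0.00285 for r (adjusted p = 0.0109 for each) and 0.00425, 0.00617 and 0.00139 for rho (adjusted p = 0.0178, 0.0216 and 0.0073). Without the 2 farthest pigs r was 0.50, -0.45 and -0.55. For the same pairs r was weaker within TN pigs alone (0.34, -0.45 and -0.39) than within HS pigs alone (0.66, -0.61 and -0.69). With slide means removed as well, r between CCR2 and CCR7 was -0.34, while it was 0.56 with CXCR3 and -0.69 with CXCR4. CXCR3 and CXCR4 both fell under HS, yet their deviations within groups ran in opposite directions (r = -0.44, permutation p = 0.019, adjusted p = 0.0571; rho = -0.45, permutation p = 0.0125, adjusted p = 0.0374). Between CXCR3 and CXCR4 r was -0.65 within TN pigs alone and -0.28 within HS pigs alone.

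**Figure D4:**
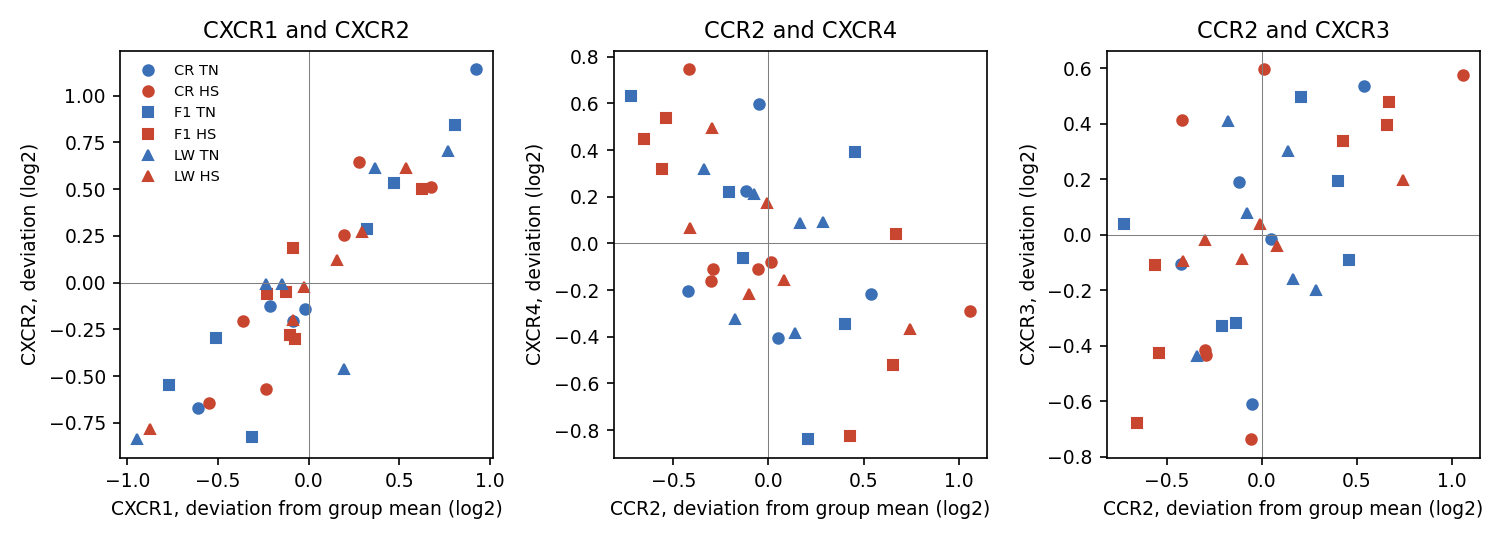
Deviations of single pigs from their group mean (log2) for CXCR1 and CXCR2, CCR2 and CXCR4, and CCR2 and CXCR3, with symbols for breed and colours for climate (blue TN, red HS). CXCR1 and CXCR2 lie along a line (r = 0.91), CCR2 and CXCR4 run opposite (r = -0.57), and CCR2 and CXCR3 run together with a wider scatter (r = 0.55).

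Probes of 1 gene ran together across pigs, with r of 0.82 to 0.95 between the 3 CXCR4 probes, 0.83 between the CCR7 probes and 0.85 between the CCR1 probes. The genes most similar to each receptor were taken by r of deviations from group means. For CXCR2 they were BCL3 (0.94), DUSP2 (0.92) and STEAP4 (0.92), for CXCR1 CXCR2 itself, TREM1, an activating receptor of neutrophils and monocytes (0.90), and BCL3 (0.89), and for CCR1 NFIL3 (0.90), MXD1 (0.90) and C5AR1, the receptor of complement fragment C5a (0.88). For CCR2 they were PRDM1, the transcription factor Blimp-1 (0.85), ZNF385A (0.84) and BEX1 (0.84), and for CXCR4 TMEM33 (0.86), ANKMY2 (0.85) and CTNNB1, which encodes beta-catenin (0.84). These are descriptions over 35 pigs that share arrays and cell mixtures.

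The other chemokine receptors moved in both directions. Of the 9 described, 3 rose and 3 fell under HS, with a median log2 difference of -0.18 against 0.06 for all 8484 named genes, of which 22.9% rose and 16.8% fell. XCR1, the receptor of cross-presenting dendritic cells, fell by 0.80 ± 0.16 (adjusted p = 0.00159), and CCRL2, an atypical receptor that binds chemerin, by 0.50 ± 0.14 (adjusted p = 0.00622). CCR3, the eosinophil receptor of eotaxins, fell by 0.46 ± 0.17 (adjusted p = 0.0324). CCR6, the receptor of CCL20, rose by 0.50 ± 0.13 (adjusted p = 0.00484), as did CCR10 (0.45 ± 0.13) and the gut homing receptor CCR9 (0.38 ± 0.11), both named after their values were seen. A second CCR10 probe gave -0.06, while both CCRL2 probes fell.

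As for CXCR3, the falls of XCR1, CCRL2 and CCR3 had their largest point estimates in F1 pigs, at -1.53, -0.94 and -0.95, and smaller in CR (-0.38, -0.32 and -0.39) and LW pigs (-0.44, -0.24 and -0.05), where they were not called. The interaction of breed and climate called none of these genes.

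**Figure D5:**
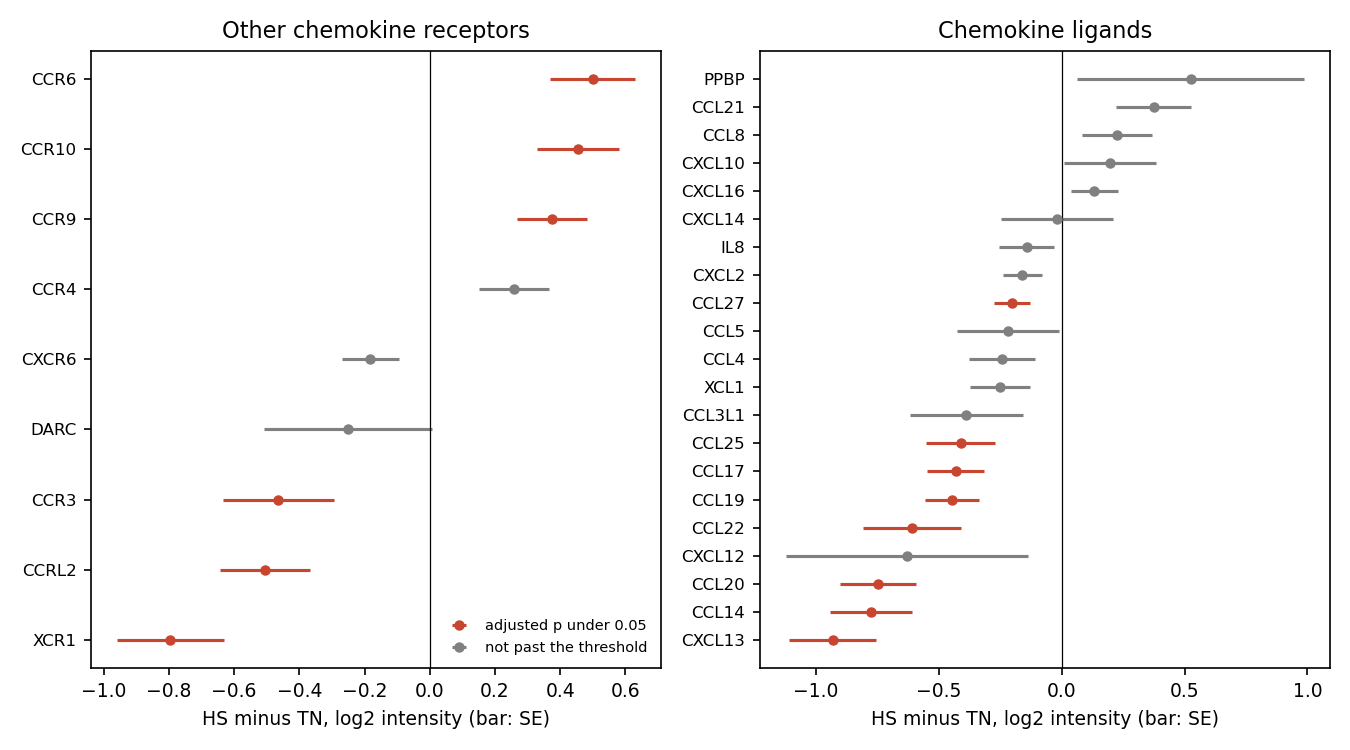
Difference HS minus TN in log2 intensity with its SE (horizontal axes) for 9 other chemokine receptors and 21 chemokine ligands (vertical axes), in red at adjusted p under 0.05 in limma. Receptors lie on both sides of 0, and all 8 ligands in red lie below 0.

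Of 21 chemokine ligands measured, 8 fell and 0 rose, with a median of -0.24, against 16.8% of all named genes that fell and 22.9% that rose. Within F1 pigs 8 fell (median -0.35), where 38.7% of all probes were called. Within CR and within LW pigs 0 ligands were called (medians -0.19 and -0.15), and 0 of all probes were. CXCL13, the ligand of CXCR5, fell by 0.93 ± 0.18 (adjusted p = 0.00159), CCL14, a ligand of CCR1, by 0.78 ± 0.17 (adjusted p = 0.00168), and CCL20 by 0.75 ± 0.16 (adjusted p = 0.00159). For CCL20 a second probe gave -0.0049. CCL22, a ligand of CCR4, fell by 0.61 ± 0.20 (adjusted p = 0.0188). CCL19 and CCL21, which bind CCR7, gave -0.45 ± 0.11 (adjusted p = 0.00356) and 0.37 ± 0.15 (adjusted p = 0.0531). CXCL10 and CXCL12, ligands of CXCR3 and CXCR4, gave 0.20 ± 0.19 and -0.63 ± 0.49, neither of which passed. Ligands outside the first 4 were named after their values were seen because of the receptors they bind.

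Of 28 genes of the signalling behind the receptors, 11 rose, 0 fell and 17 did not pass, with a median of 0.17, while 22.9% of all named genes rose and 16.8% fell. Within F1 pigs 13 rose (median 0.32), and within CR and within LW pigs 0 were called (medians 0.13 and 0.09). The largest rises were those of PLCB3, a phospholipase C (0.37 ± 0.08), ARRB1, an arrestin that uncouples and internalises receptors (0.35 ± 0.09), CORO1A, an actin regulator of leukocytes (0.33 ± 0.08), and ADRBK1, the receptor kinase GRK2 (0.30 ± 0.08), each with an adjusted p of 0.00159 to 0.00819. GNAI2, the main inhibitory G protein of leukocytes, rose by 0.25 ± 0.07 (adjusted p = 0.00884). Neither RGS1 nor RGS2, which shut off G proteins, passed (-0.05 ± 0.09 and 0.07 ± 0.14).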

How the data were processed

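Whole-blood RNA of 35 pigs was hybridised to 1-colour Agilent porcine arrays on 5 slides. Per the file headers, the deposited scanner files hold spot intensity from Feature Extraction 10.10.1.1. The authors deposited log2 values of 39072 probes, quantile normalized by them and restricted to probes they took as expressed, and these were the values used. Values recomputed here from the scanner intensity correlated with the authors' at 0.99997.

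Groups came from the sample titles. Each probe was fitted in R 4.3.3 with limma 3.58.1 (lmFit, eBayes, two-sided), additively for breed and climate, and on the 6 group means for effects within breeds and their interaction. P-values were adjusted by Benjamini-Hochberg over all 39072 probes with a threshold of 0.05. Pen, day, sire and dam, random effects in the study's model, were not in the labels, so SEs treat pigs as independent. In the study's design a pen or a slaughter day belonged to a single climate, so p-values of HS against TN may be too small. The study's own model, with these random effects, called far fewer blood probes than the 13601 of 39072 (34.8%) called here. Littermates were spread over pens of both climates but belonged to a single breed, so p-values of breed contrasts may be too small as well. The number of arrays limits the precision. Levels of different probes were not compared.

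The members and gene lists were chosen with earlier results of these data known. All members were named, and from other lists up to 4 called genes per list and contrast with the largest difference, each by its brightest probe, and the 3 genes most correlated with each receptor. Some further genes of the lists, such as GNAI2, RGS1 and LTB4R, were named outside this rule. Gene names were looked up in the RefSeq table of Sscrofa11.1. One gene of the lists is not reported here. No coordinates are given, since the files name no build. The fit recovered known shifts when tested on simulated data. Alternatives were recomputed values with and without a filter, 75th percentile scaling, normexp background correction, slide as a block or within slides, array weights, covariates for erythroid, neutrophil and T cell markers (the latter pair added after seeing the data), gene means, leaving out F1 pigs, and leaving out each array.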

Additional observations from a re-analysis of the deposited data

Results flagged for a closer look

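In 4 of 66 groups of pigs examined for the receptor probes, 1 pig lay far from the others of its group, while chance alone would single out about 5% of groups. CCR2 was 9.64 in CR HS replicate 1, against 8.17 to 8.59 in the other 5 pigs. CXCR4 probe 1 was 9.81 in CR HS replicate 4, against 8.78 to 8.99, which is the 1 CR HS pig that did not lie below the CR TN range. CCR7 probe 1 was 12.72 in LW HS replicate 4, against 12.05 to 12.19. CXCR1 was 9.77 in F1 HS replicate 5, against 8.92 to 9.07. These are log2 levels from 4 different pigs, and no array was singled out for more than 1 receptor.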

How the results depend on the processing

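Over all pigs, the number of receptor probes past the threshold was 5. It was 0 with the erythroid marker mean as a covariate and 0 without the F1 pigs, settings in which 42 and 0 of all 39072 probes passed. With the covariate CXCR3 was -0.58 (adjusted p = 0.0557), CCR7 0.19 and 0.36, and CXCR4 -0.44, -0.32 and -0.28 (probes 1 to 3). Without F1 pigs they were -0.46 (adjusted p = 0.212), 0.27 and 0.37, and -0.58, -0.46 and -0.33, so signs were kept. Within F1 pigs the count of 3 was 1 with the erythroid covariate (CXCR3, -1.12). With array weights 1 of 11 probes passed within LW pigs (CXCR4 probe 1, -0.81; 2.84% of all probes) and 1 in the difference of HS effects between F1 and LW (CXCR3, -1.003; 9.99%). With the T cell covariate, added after seeing the data, 1 passed in CR minus LW (CXCR3, -0.52), where 14.2% of all probes did against 1.08% without it, and in HS minus TN, where 11.8% did, CCR2 (0.42, adjusted p = 0.0325) and all 3 CXCR4 probes passed.

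Signs of some probes that had not passed turned. CCR1 probe 2 was -0.13 with the erythroid and -0.0082 with the T cell covariate. CXCR1 was 0.030 with 75th percentile scaling, 0.011 with slide as a block and 0.038 with array weights. Within single slides called differences turned as well: CCR7 probe 1 was -0.024 within slide 5, and CXCR4 probes 1 and 3 were 0.078 and 0.043 within slide 4. CXCR4 probe 2, not called, was 0.12 within slide 4 and 0.0041 within slide 5. Slide 5 held only LW pigs under TN and only CR and F1 pigs under HS, so its differences mix breed and climate. The causes were not tested.

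With each array left out in turn, 5 to 6 probes passed over all pigs and 2 to 3 within F1 pigs. CXCR1 ranged from -0.056 to 0.062 and CXCR2 from -0.12 to 0.0098, positive without CR TN replicate 1, and CXCR4 probe 2 passed in 8 of 35 cases. Scaling to the 75th percentile turned the split of calls within F1 pigs from 8109 higher and 6999 lower to 7360 and 7661, with a median shift of all probes of 0.18 in place of 0.13. No paired analysis was possible because the replicate numbers only follow accession order and link no animals.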

Other observations

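Other receptors that draw leukocytes to sites of inflammation or hold them in tissue were mostly not on the array or not in the table, with 4 of 16 names measured. S1PR1, the receptor through which lymphocytes leave lymph nodes, rose under HS by 0.34 ± 0.12 (limma, adjusted p = 0.0299), and GPR44, the prostaglandin D2 receptor of eosinophils, basophils and type 2 T cells, fell by 0.54 ± 0.15 (adjusted p = 0.00656). C5AR1 and LTB4R, neutrophil receptors of C5a and leukotriene B4, gave -0.03 ± 0.14 and -0.09 ± 0.07. Neither passed, as for CXCR1 (-0.0031) and CXCR2 (-0.07).

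Between breeds (CR minus LW), single genes of the lists around the receptors were called, and 0 of the 11 member probes were. The called genes were 1 of 9 other chemokine receptors, 1 of 21 ligands and 2 of 28 signalling genes, against 1.08% of all probes. CCR9 was lower in CR than in LW pigs by 0.54 on the log2 scale (adjusted p = 0.0314), CCL8 was higher by 0.72 (adjusted p = 0.0301), RGS2 differed by -1.28 and PIK3R5, a regulatory subunit of PI3K gamma, by 0.69. Of the lists of blood cell markers, the 6 B cell markers had 2 higher under HS, MS4A1 (0.38 ± 0.14) and CD79B (0.35 ± 0.14), the 5 platelet markers 0, and the 14 erythroid markers 1 higher and 5 lower with a median of -0.60, against 22.9% of all named genes higher and 16.8% lower. No eosinophil marker of the list was on the array, so the fall of CCR3 and GPR44 has no such list beside it.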
